A study of Mus musculus with 8 samples.

Results

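The circadian clock genes examined here are 10 rows of the count table, chosen by symbol: the activators Clock and Arntl (also called Bmal1, listed under the older name), the repressors Per1, Per2, Per3, Cry1 and Cry2, the REV-ERB receptor genes Nr1d1 and Nr1d2, and the output gene Dbp. All 10 were found among the 15288 genes of the table, and all 10 passed the expression filter that left 14024 genes for testing. The libraries came from IMCD, a mouse cell line labelled as kidney duct cells (inner medullary collecting duct per the series' design text). Cells near confluence were kept for 12 h in FBS-free DMEM, either with no addition (control, libraries 1 to 4) or with 100 mmol NaCl (libraries 5 to 8). The labels give the amount of NaCl without a volume, state no clone or passage, and do not say that the 4 libraries of a group came from separate cultures. The p-values therefore measure the spread between these libraries, which may be technical.

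The mammalian clock is a feedback loop of transcription. CLOCK and BMAL1 bind E-box elements as a pair and activate the Per, Cry, Nr1d and Dbp genes, and the PER and CRY proteins return to inhibit the pair. REV-ERB receptors repress Arntl through ROR elements, ROR receptors activate it, and DBP acts on D-boxes against the repressor NFIL3. In the kidney, the loop is known for daily rhythms of sodium and water handling, and PER1 is known to act on the epithelial sodium channel in collecting duct cells. Both groups were harvested at a single time, so a shift of phase and a change of level cannot be told apart.

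Libraries held 35.3 to 47.6 M counts. Across the series, edgeR's quasi-likelihood test with Benjamini-Hochberg adjustment called 4789 of 14024 genes (34.1%), 16.9% higher and 17.2% lower with NaCl, where a call is an adjusted p-value under 0.05. The labelled cell type was compared with its markers. The collecting duct regulators Tfcp2l1 and Hoxb7 stood at 130 and 71.4 CPM (counts per 1 M of the TMM-scaled library total) in control, while Aqp2, the vasopressin-regulated water channel that defines principal cells, was near the limit of detection, with counts of 0, 1, 3 and 0 for control and of 12, 8, 15 and 14 for NaCl. Of the 13 principal cell markers, 12 were measured, with a summed level of 208 to 239 CPM in control and 170 to 186 CPM in NaCl libraries. Of the 9 tested, Tfcp2l1 (101 CPM with NaCl), Hoxb7 (60.2 CPM with NaCl), Gata3 and Scnn1g were called lower, and Slc14a2 and Avpr2 higher. The 3 measured proximal tubule markers summed to 162 to 205 and 155 to 177 CPM, mostly the endocytic receptor gene Lrp2 (185 and 162 CPM, not called). The 1 measured intercalated cell marker, Atp6v0d2, was called lower (1.84 and 0.326 CPM). The 7 epithelial markers summed to 574 to 738 and 764 to 884 CPM. Of these, Pax2 (78.8 and 185 CPM), Pax8 (160 and 231 CPM) and E-cadherin (Cdh1, 0.195 and 0.535 CPM) were called higher, and Epcam, Krt8, Krt18 and Krt19 were not called. The 3 fibroblast markers summed to 2356 to 2697 and 2016 to 2368 CPM, almost all of it Col1a1, which was called lower with Pdgfra, while Pdgfrb was called higher (37.5 and 61.1 CPM). The 2 leukocyte markers summed to 5.95 to 7.19 CPM in control and 14.9 to 15.3 CPM in NaCl libraries, with Ptprc called higher (4.05 and 13.5 CPM) and Cd68 not called (2.41 and 1.69 CPM). The 3 thick limb and distal tubule markers summed to 2.60 to 4.15 and 4.65 to 4.92 CPM, and none of them was called. The 1 measured endothelial marker, Cdh5, was not called (0.50 and 0.39 CPM). The part of these differences in the values below was not tested.

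Letters of the known clock elements were looked for in the promoters of these genes. Binding was not measured, and sites outside the windows were not looked for. RefSeq promoter windows (GRCm38.p6, 250 bases before to 50 after a start site) were matched for 9 of the 10 genes, in 13 windows. Per2 was not matched. The E-box CACGTG lay in 2 of these windows and in 7.15% of all 32851 windows. The D-box (TTATGTAA or TTATGCAA) lay in 2 and in 1.66% of all windows, and the ROR core (TAGGTCA or TGGGTCA) in 1 and in 6.45%. The cAMP element TGACGTCA was in none of the 13 windows and in 1.79% of all, and the glucocorticoid element core TGTTCT was in none and in 18.97%. Both strands were read, and motifs may overlap. The stretches below are written 5′ to 3′ on the gene's strand with the match in capitals.

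Per1 E-box, chr11:69098763-69098808 (plus strand): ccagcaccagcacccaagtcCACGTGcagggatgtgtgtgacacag
Cry1 E-box, chr10:85185089-85185134 (minus strand): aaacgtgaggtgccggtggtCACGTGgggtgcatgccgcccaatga
Per3 D-box, distal, chr4:151044843-151044890 (minus strand): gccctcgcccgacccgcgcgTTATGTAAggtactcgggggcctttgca
Per3 D-box, proximal, chr4:151044796-151044843 (minus strand): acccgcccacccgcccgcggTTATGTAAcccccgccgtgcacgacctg
Per1 D-box, chr11:69098905-69098948 (plus strand): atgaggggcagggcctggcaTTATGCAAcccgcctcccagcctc
Arntl ROR core, chr7:113207521-113207547 (plus strand): catttagggaaggcagaaagTAGGTCA

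With negative positions before the start site, the Per1 E-box began at -166 and the Cry1 E-box at -60. The Per3 window held the D-box letters at -205 and -158, and the Per1 window at -24. The ROR core of Arntl began at 30, after the start, in 1 of its windows. The E-box variant CACGTT was found for Cry1, Cry2 and Nr1d1 and in 4.68% of all windows. The shorter cAMP site TGACG, which is contained in the full element, was found for Per1, Cry1 and Cry2 and in 20.8% of all windows. The tonicity element core TGGAAA, the letters bound by NFAT5, was found for Nr1d1 alone among these genes and in 21.4% of all windows. Clock, Nr1d2 and Dbp held none of the letters searched in these windows. Over 10659 tested genes with a window, 34.6% were called, against 35.7% of the 1229 with an E-box, 41.0% of the 144 with a D-box, 35.4% of the 670 with the ROR core and 36.1% of the 2112 with the tonicity core. The share was 30.3% of the 674 with the E-box variant, 25.5% of the 381 with the cAMP element, 32.6% of the 3726 with its shorter site and 33.7% of the 1549 with the glucocorticoid core. These shares are a description of all genes and carry no test.

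None of the 10 clock genes was called in edgeR's quasi-likelihood test, where 34.1% of all tested genes were. At an unadjusted p-value under 0.05 there were 2, Per2 and Per3, against 43.3% of all tested genes. DESeq2 called 1 of the 10, Per3, where it called 34.8% of genes, and limma-voom called 0, where it called 34.3%. The log2 fold changes (NaCl over control) lay between -0.19 for Per2 and 0.13 for Dbp, with 5 above and 5 below 0. Their median was -0.012 beside 0.0029 over all tested genes, and their median absolute value was 0.10 beside 0.14. In this fit, which held only the group, the 95% intervals of all 10 lay between a fold of 0.778 and a fold of 1.23. For each gene a change of 1.5-fold therefore lay outside the interval. These intervals rest on at least 437 counts per gene and library and on standard errors between 0.046 and 0.087. With the library number as a linear drift over libraries 1 to 8, the largest change was that of Per2. It was -0.33 with a standard error of 0.16, and the 1.5-fold limit was not checked for that fit. Replicate coefficients of variation were between 3.01% and 10.97%. In bulk libraries, fewer cells of a kind and less RNA per cell cannot be told apart.

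**Figure D1:**
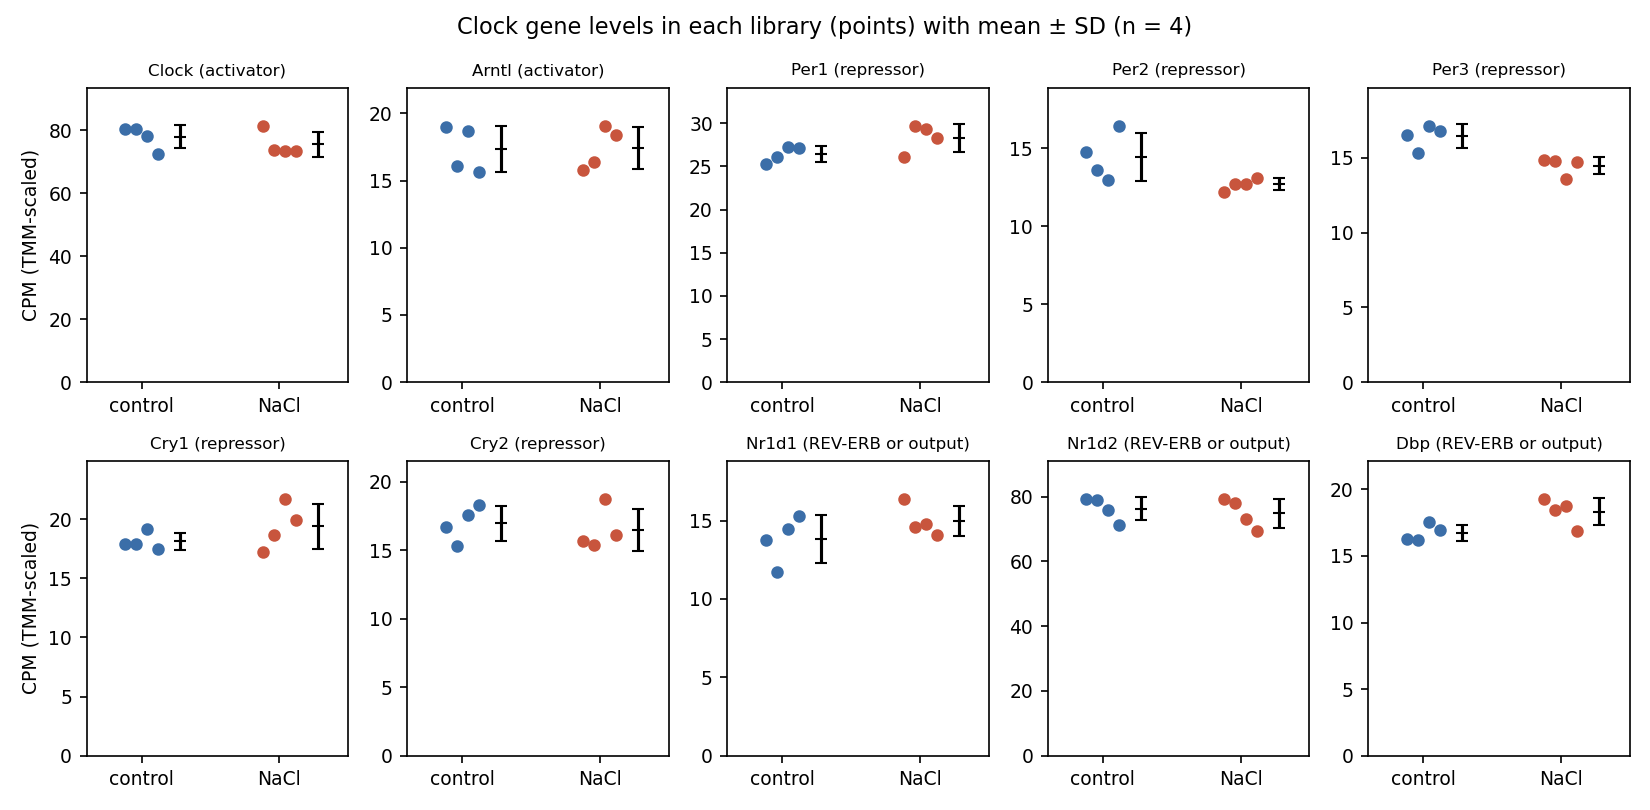
Level of each clock gene in every library, in CPM on TMM-scaled totals from 0. Points are the 4 control (blue) and 4 NaCl (red) libraries, and bars show mean ± SD. Groups overlap for every gene but Per3, where all NaCl libraries lie below all control libraries.

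**Figure D2:**
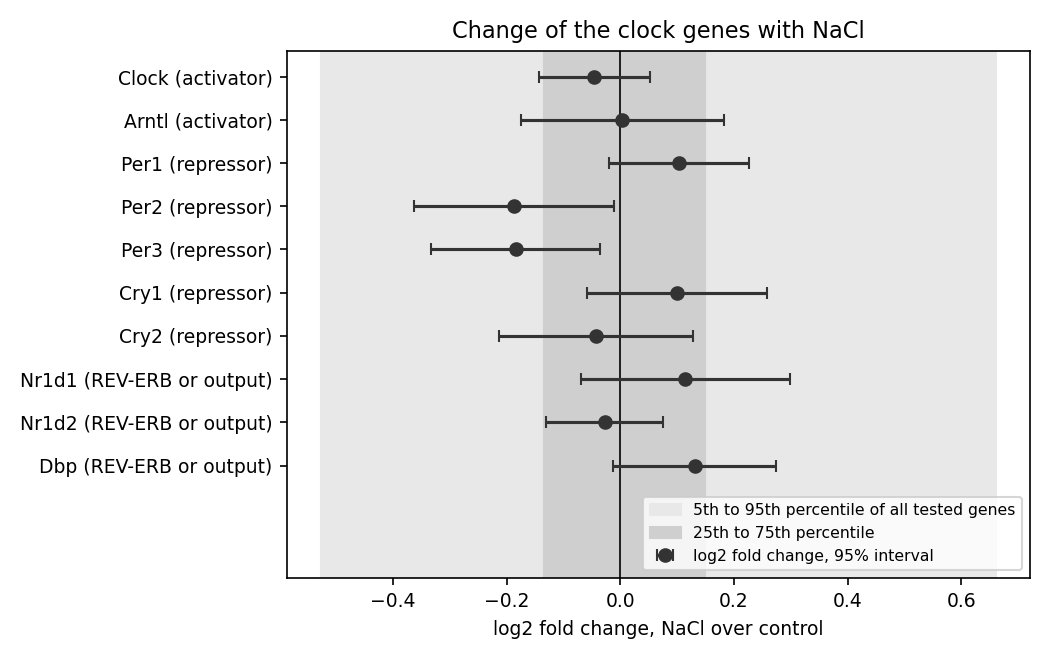
Log2 fold change of each clock gene with its 95% interval from the edgeR fit. Grey bands show the range of all tested genes, from -0.53 to 0.66 for the 5th to 95th percentile and from -0.13 to 0.15 for the 25th to 75th. All 10 intervals stay within the wider band.

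Both activators overlapped between the groups. Clock (ENSMUSG00000029238; chr5:76209868-76304792), which encodes the histone acetyltransferase partner of the activating pair, had 80.5, 80.4, 78.3 and 72.6 CPM in control replicates 1 to 4 and 81.4, 73.8, 73.5 and 73.5 CPM in NaCl replicates 5 to 8. The groups overlapped over almost their whole range, and NaCl replicate 5 was the highest of all 8 libraries. The log2 fold change was -0.046 (95% interval -0.14 to 0.052; edgeR adjusted p = 0.482). Arntl (ENSMUSG00000055116; chr7:113207465-113314126), which encodes BMAL1, the partner without which the loop stops, had 19.0, 16.1, 18.7 and 15.6 CPM in control and 15.8, 16.4, 19.1 and 18.4 CPM in NaCl libraries. High and low libraries were found in both groups. The means were 17.4 ± 1.74 and 17.4 ± 1.57 CPM (SD, n = 4 each), and the log2 fold change was 0.0039 (95% interval -0.18 to 0.18; edgeR adjusted p = 0.978).

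The 3 Period genes did not share a sign. Per1 (ENSMUSG00000020893; chr11:69095217-69109960), the Period gene known to respond most directly to cAMP and glucocorticoid signals, had 25.2, 26.1, 27.3 and 27.1 CPM in control and 26.1, 29.7, 29.3 and 28.3 CPM in NaCl libraries. NaCl replicates 6 to 8 lay above every control library, and NaCl replicate 5 lay among them. The fitted log2 fold change was 0.10 (95% interval -0.021 to 0.23; edgeR adjusted p = 0.191). Per2 (ENSMUSG00000055866; chr1:91415982-91459324), a core repressor whose protein turnover sets the length of the cycle, had 14.8, 13.6, 12.9 and 16.4 CPM in control and 12.2, 12.7, 12.7 and 13.1 CPM in NaCl libraries. The groups overlapped through control replicate 3 and NaCl replicate 8. The log2 fold change was -0.19 (95% interval -0.36 to -0.011; edgeR unadjusted p = 0.0383, adjusted p = 0.094). Per2 was called without control replicate 3 (log2 fold change -0.24; edgeR adjusted p = 0.0483) and was not called without any other single library, down to -0.12 without control replicate 4 (0.286).

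Per3 (ENSMUSG00000028957; chr4:151003652-151044665), a Period gene that the loop can run without, came nearest to the threshold. It had 16.6, 15.3, 17.1 and 16.8 CPM in control and 14.8, 14.8, 13.6 and 14.7 CPM in NaCl libraries. All NaCl libraries lay below all control libraries, as in 16.9% of all tested genes. Per3 was the only clock gene of the 10 whose groups did not overlap in either direction, beside 33.4% of all tested genes. The means were 16.4 ± 0.806 and 14.5 ± 0.594 CPM (SD, n = 4 each), with a log2 fold change of -0.18 (95% interval -0.33 to -0.035; edgeR adjusted p = 0.0534). Its adjusted p ranged from 0.0322 with DESeq2 to 0.351 with the library number as a linear drift over libraries 1 to 8, and it was 0.0395 without control replicate 2. Its direction was lower with NaCl under all 19 alternatives.

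The Cryptochromes, which bind the CLOCK-BMAL1 pair directly and hold it inactive, both overlapped between the groups. Cry1 (ENSMUSG00000020038; chr10:85131700-85185064), the stronger repressor of the pair, had 17.9, 17.9, 19.2 and 17.5 CPM in control and 17.2, 18.7, 21.7 and 19.96 CPM in NaCl libraries. NaCl replicates 7 and 8 lay above the controls and NaCl replicate 5 below them. The fitted log2 fold change was 0.099 (95% interval -0.059 to 0.26; edgeR adjusted p = 0.333), and 0.041 without NaCl replicate 7. Cry2 (ENSMUSG00000068742; chr2:92403646-92434043) had 16.7, 15.3, 17.5 and 18.3 CPM in control and 15.7, 15.4, 18.7 and 16.1 CPM in NaCl libraries, the lowest value being in a control and the highest in a NaCl library. The log2 fold change was -0.043 (95% interval -0.21 to 0.13; edgeR adjusted p = 0.727), and it was -0.11 without NaCl replicate 7 and -0.0066 without control replicate 4. Over 4.67% of its exon bases Cry2 overlaps D930015M05Rik on the opposite strand.

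The REV-ERB genes and Dbp are direct targets of the activating pair and follow its activity closely. Nr1d1 (ENSMUSG00000020889; chr11:98767932-98775333), which encodes REV-ERB alpha, had 13.8, 11.7, 14.5 and 15.3 CPM in control and 16.3, 14.6, 14.8 and 14.1 CPM in NaCl libraries. The overlap came from control replicates 3 and 4. The fitted log2 fold change was 0.11 (95% interval -0.070 to 0.30; edgeR adjusted p = 0.34), and 0.041 without control replicate 2. Nr1d2 (ENSMUSG00000021775; chr14:18204054-18239127), which encodes REV-ERB beta, had 79.1, 78.9, 75.8 and 71.4 CPM in control and 79.1, 77.95, 72.9 and 69.5 CPM in NaCl libraries. Each group ran over nearly the same range, with a log2 fold change of -0.028 (95% interval -0.13 to 0.074; edgeR adjusted p = 0.703).

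Dbp (ENSMUSG00000059824; chr7:45705088-45710203), whose transcript swings widely over the day in most tissues, had 16.3, 16.2, 17.5 and 16.95 CPM in control and 19.2, 18.4, 18.7 and 16.9 CPM in NaCl libraries. NaCl replicates 5 to 7 lay above every control library, and NaCl replicate 8 lay among them. The log2 fold change was 0.13 (95% interval -0.013 to 0.27; edgeR adjusted p = 0.151). Dbp overlaps Sphk2, and Nr1d1 overlaps Thra, each on the opposite strand, over 18.0% and 8.55% of their exon bases. The strandedness of the counts is not given in the sources used here, so reads in these stretches cannot be told apart. Both neighbours were called higher: Sphk2 went from 29.05 ± 2.55 to 32.7 ± 0.648 CPM (SD, n = 4 each; log2 fold change 0.17, edgeR adjusted p = 0.0391) and Thra from 64.1 ± 5.71 to 79.5 ± 3.32 CPM (log2 fold change 0.31, adjusted p = 4.46e-04). Their part in the Dbp and Nr1d1 values was not tested.

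Levels were also set per length, as mean CPM per kilobase of annotated exon in the controls (GENCODE M21, all exons merged), because counts rise with transcript length. Nr1d2 led with 14.1 ± 0.67 CPM per kb (SD, n = 4) and lay above every other clock gene in all libraries. Clock, Dbp and Cry1 followed at 5.68, 5.59 and 5.42 CPM per kb, and neighbours in this order overlapped. Per1 and Nr1d1 came next at 4.69 and 4.49 CPM per kb and overlapped each other, and all control libraries of Cry1 lay above those of Per1. Cry2, Per2 and Arntl stood at 2.68, 2.47 and 2.31 CPM per kb, again with overlap. On this scale Per3 was lowest at 1.71 ± 0.084 CPM per kb, below the controls of Arntl in every library. With NaCl the order changed only among genes that overlapped in control: Dbp and Cry1 stood above Clock at 6.12, 5.80 and 5.50 CPM per kb, and Arntl above Per2 at 2.31 and 2.17 CPM per kb. The order depended on the length used. Per kilobase of the longest transcript, a choice made after seeing the data, Nr1d2 was again first (16.4 CPM per kb in control) and Cry2, Per2, Arntl and Per3 were again the lowest 4. Dbp (9.11) then stood above Clock (8.001), Arntl (4.35) above Cry2 (4.27), and Per3 (2.74) above Per2 (2.48).

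Whether paralogs or partners moved unequally was tested on the log2 ratio of their CPM within each library, with exact two-sided permutation tests over the 8 libraries and adjustment over 6 pairs. At this size no p-value under 0.0286 is possible. The log2 ratio of Per1 to Per2 was 0.77, 0.93, 1.07 and 0.72 in control and 1.09, 1.22, 1.204 and 1.10 in NaCl libraries. All NaCl libraries lay above all controls, with a difference of 0.28 (exact p = 0.0286, adjusted 0.0857). The log2 ratio of Per1 to Per3 was 0.61, 0.77, 0.67 and 0.69 in control and 0.81, 1.01, 1.11 and 0.94 in NaCl libraries, again without overlap, with a difference of 0.28 (exact p = 0.0286, adjusted 0.0857). Both had the smallest p-value the design allows. Per1 is part of both ratios, so they are not separate results. Taken singly, 33.4% of all tested genes did not overlap between the groups. The share over other gene pairs was not measured. With 6 pairs, an adjusted p-value under 0.05 would need at least 4 of them at that value, so the adjusted values say little about these ratios.

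The remaining pairs overlapped between the groups. The ratio of Per2 to Per3 differed by 0.0011 (exact p = 1), that of Cry1 to Cry2 by 0.14 (exact p = 0.114, adjusted 0.229), that of Nr1d1 to Nr1d2 by 0.15 (exact p = 0.257, adjusted 0.386) and that of Arntl to Clock by 0.050 (exact p = 0.686, adjusted 0.823). The activators' ratio was -2.17 ± 0.12 in control and -2.12 ± 0.19 in NaCl libraries (log2, SD, n = 4 each).

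**Figure D3:**
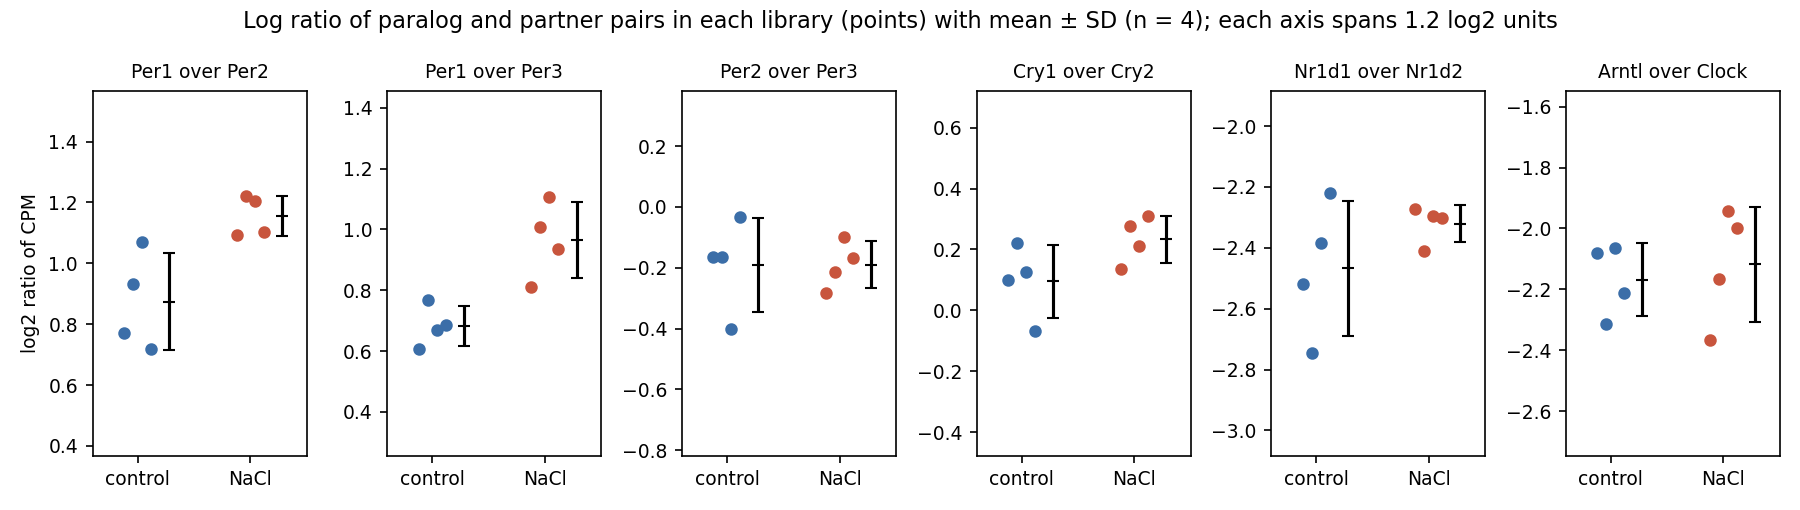
Log2 ratio of CPM within each library for 6 pairs of clock genes; points are libraries and bars show mean ± SD (n = 4). Per1 over Per2 and Per1 over Per3 are separated between control (blue) and NaCl (red), each with a difference of 0.28, and the other 4 pairs overlap. Both separated pairs share Per1, and 33.4% of all tested genes, taken singly, do not overlap.

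The wider clock machinery was read from 8 lists holding 65 genes, of which 61 were tested. Of these, 12 were called higher and 13 lower with NaCl by edgeR's quasi-likelihood test, 41.0% together beside 34.1% of all tested genes. The median log2 fold change was -0.018, and 22 of the 25 called genes changed by less than 1.5-fold. Without control replicate 2 the number called higher was 7 in place of 12. With the library number as a linear drift over libraries 1 to 8, Arntl2, Tef, Prkaa2, Huwe1, Ncor1, Crebbp, Kmt2a, Tspan4, Por, Leo1, Fkbp5, Nr4a1 and Avpr2 were no longer called. Npas2, Rorb and Hlf were not matched by symbol to a row of the count table.

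Among the 8 tested genes of the 3 lists closest to the loop, 3 were called (37.5% beside 34.1% of all tested genes), all lower with NaCl. Nfil3, the repressor that competes with DBP at D-boxes, fell from 61.1 ± 6.56 to 42.3 ± 4.93 CPM (SD, n = 4 each), with a log2 fold change of -0.53 (edgeR adjusted p = 0.00132). It had 53.1, 59.3, 63.3 and 68.6 CPM in control and 36.0, 40.8, 46.1 and 46.3 CPM in NaCl libraries, with no overlap. It was the 1 gene called of the 4 further repressors. Bhlhe40, which competes for E-boxes, had 261 and 194 CPM on average (log2 fold change -0.43; edgeR adjusted p = 0.124), with overlap between the groups. Its relative Bhlhe41 (log2 fold change -0.013) and the CLOCK-BMAL1 repressor gene Ciart (-0.11) had adjusted p-values of 0.968 and 0.734. With the linear drift, a term that the group cannot be fully separated from, all 4 were called lower, where 24.1% of all tested genes were called. The edgeR log2 fold changes there were -1.21 for Bhlhe40 (adjusted p = 0.00123), -0.91 for Bhlhe41 (1.20e-04), -0.93 for Ciart (0.0157) and -1.02 for Nfil3 (1.81e-11). With the number centred within groups instead, Bhlhe41 (-0.034; edgeR adjusted p = 0.777) and Ciart (-0.15; 0.361) were not called. Bhlhe40 (-0.45; 0.00195) and Nfil3 (-0.53; 7.81e-13) were called lower in that fit, where 43.0% of all tested genes were called.

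Arntl2, the paralog of Arntl, was the 1 gene called of the 3 tested in its list (33.3%, beside 34.1% of all tested genes). It fell from 11.5 ± 0.628 to 8.84 ± 0.866 CPM without overlap (log2 fold change -0.38; edgeR adjusted p = 0.00353). With the linear drift its adjusted p was 0.316. Rora, which encodes an activator of Arntl, was not called (log2 fold change 0.095; edgeR adjusted p = 0.769), but was called lower with the linear drift (-0.91; 8.91e-06). With the number centred within groups Rora was not called (0.080; 0.374). Tef, a relative of Dbp that acts on the same D-boxes, fell from 78.5 ± 1.69 to 71.4 ± 4.59 CPM (log2 fold change -0.14; edgeR adjusted p = 0.0276). Tef was no longer called when control replicate 1 (adjusted p = 0.0574) or 2 (0.0544), or NaCl replicate 7 (0.0981) or 8 (0.0801), was left out. With the linear drift Tef changed sign (0.036; edgeR adjusted p = 0.795).

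Among modifiers of clock proteins, 2 of 14 kinases and ubiquitin ligases were called (14.3% beside 34.1% of all tested genes), both higher: Huwe1, a ligase for REV-ERB alpha, with a log2 fold change of 0.10 (edgeR adjusted p = 0.0204), and Prkaa2, a catalytic subunit of the energy sensor AMPK, with 0.15 (0.0441). Huwe1 lost the call without control replicate 2 (0.0854) or NaCl replicate 6 (0.068), and Prkaa2 lost it without any of 6 single libraries, among them NaCl replicate 5 (0.155). The casein kinases that phosphorylate PER proteins were not called, with log2 fold changes of -0.018 for Csnk1d and -0.056 for Csnk1e.

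Of 14 cofactors, 5 were called, all higher with NaCl, which is 35.7% beside 34.1% of all tested genes. Ep300, an acetyltransferase recruited by CLOCK-BMAL1, rose from 148 ± 5.24 to 176 ± 3.78 CPM (SD, n = 4 each; log2 fold change 0.26; edgeR adjusted p = 2.85e-05), and its relative Crebbp from 41.6 ± 2.73 to 48.2 ± 3.42 CPM (0.21; 0.0107). Ncor1, the co-repressor through which REV-ERB receptors silence genes, rose from 260 ± 7.52 to 284 ± 6.51 CPM (0.12; 0.00845). The histone methyltransferase gene Kmt2a had a log2 fold change of 0.15 (0.0152) and lost the call without control replicate 2 (0.0682) or NaCl replicate 6 (0.0556). Sirt1, a deacetylase of PER2 and BMAL1, had 0.19 (0.0454) and lost the call without any single library other than NaCl replicate 8. Ncor1's partner Hdac3 was not called (-0.077; 0.125).

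Genes that oscillate with the clock in many tissues, other than the 10, were called in 7 of 10 cases, 6 lower and 1 higher, beside 17.2% lower and 16.9% higher of all tested genes, with a median log2 fold change of -0.24. Klf10, a Krüppel-like repressor, fell from 50.8 ± 3.46 to 36.96 ± 2.94 CPM (SD, n = 4 each; log2 fold change -0.46; edgeR adjusted p = 2.39e-05), and Klf9, which responds to glucocorticoids, from 47.3 ± 4.67 to 35.1 ± 3.10 CPM (-0.43; 5.35e-04). The cell-cycle inhibitor gene Cdkn1a fell from 146 ± 2.47 to 111 ± 14.4 CPM (-0.40; 0.00421). Nampt, the rate-limiting enzyme of NAD salvage, fell from 198 ± 9.17 to 165 ± 14.9 CPM (-0.26; 0.00352), and Por, the electron donor of cytochrome P450 enzymes, from 182 ± 12.1 to 157 ± 10.6 CPM (-0.22; 0.00598). None of these 5 overlapped between the groups, as 33.4% of all tested genes did not. With the linear drift Por changed sign and was not called (0.072; edgeR adjusted p = 0.43). Klf10 (-0.64), Klf9 (-0.78), Cdkn1a (-0.70) and Nampt (-0.56) were called lower there, where 24.1% of all tested genes were called. The other two called were Tspan4 (-0.13; 0.00884) and, in the opposite direction, Leo1 (0.14; 0.0271), both named after their values were seen; Leo1 was not called when control replicate 2 (0.0784) or 3 (0.0854), or NaCl replicate 5 (0.0935) or 7 (0.0661), was left out. Usp2, Tsc22d3 and Wee1 were not called.

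The signals that are known to induce Per1 were read from 9 genes of cAMP-CREB and glucocorticoid signalling, of which 5 were called, beside 34.1% of all tested genes. Crem, a cAMP-responsive modulator gene, rose from 16.8 ± 1.04 to 25.01 ± 0.465 CPM (SD, n = 4 each; log2 fold change 0.57; edgeR adjusted p = 2.70e-06). The CREB coactivator gene Crtc1 rose from 48.0 ± 1.99 to 58.3 ± 1.23 CPM (0.28; 1.20e-04). Sik1, the kinase that shuts CREB coactivators off, fell from 66.2 ± 4.01 to 43.6 ± 4.63 CPM (-0.60; 1.38e-05). Nr4a1, an immediate early target of CREB, fell with a log2 fold change of -0.29 (0.0207), and lost the call without control replicate 2 (0.079) or NaCl replicate 7 (0.0737). Fkbp5, a target of the glucocorticoid receptor, fell with -0.37 (0.0395) and overlapped between the groups, since control replicate 3 had 35.4 CPM and NaCl replicate 5 had 35.6 CPM. Its call was lost without control replicate 2 (0.0957) or any single NaCl library. The receptor gene Nr3c1 was not called (-0.012; 0.827).

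Of 7 collecting duct genes described as under PER1 or clock control, 6 were tested and 3 called, beside 34.1% of all tested genes. Sgk1, the kinase that raises sodium channel activity, rose from 23.2 ± 1.84 to 28.7 ± 1.59 CPM (SD, n = 4 each; log2 fold change 0.31; edgeR adjusted p = 0.00183). Fxyd5, a sodium pump regulator, fell from 5.02 ± 0.334 to 2.50 ± 0.315 CPM (-1.01; 2.74e-05). Avpr2, the vasopressin receptor gene, was near the limit of detection, with counts of 0, 6, 11 and 1 for control and of 16, 16, 48 and 25 for NaCl, and was called higher (edgeR adjusted p = 0.00685). The sodium channel gene Scnn1a stood at 2.12 and 2.49 CPM (0.23; 0.328) and Edn1, which encodes endothelin, at 7.02 and 6.90 CPM (-0.021; 0.914).

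**Figure D4:**
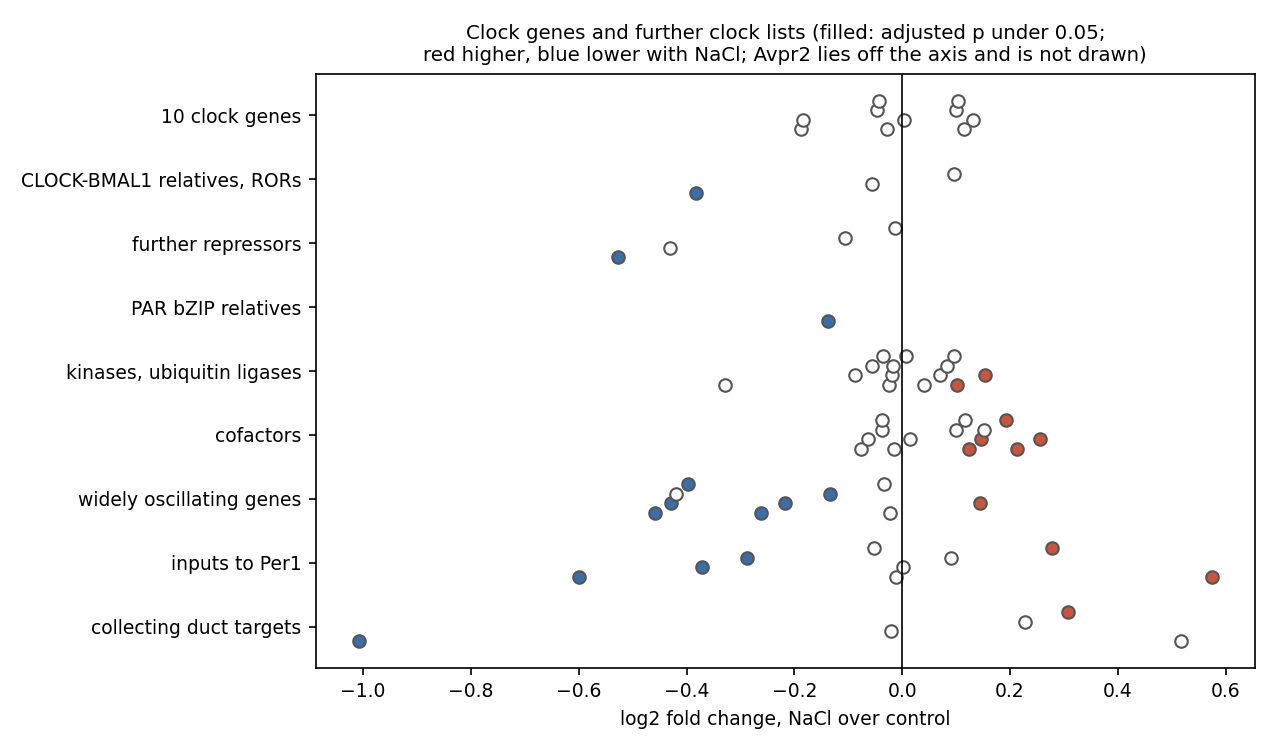
Log2 fold change of the 10 clock genes and of the tested genes of 8 further lists, 1 point per gene, filled where the edgeR adjusted p-value was under 0.05. The 10 clock genes are all open and lie between -0.19 and 0.13, while 6 of the 10 widely oscillating genes are filled on the lower side. Avpr2, called higher, lies off the axis and is not drawn.

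Levels were then set against the library number in the labels, because values of the series change with that number inside both groups. In an edgeR fit with the group and the number centred within its group, 13.2% of all tested genes had a slope past an adjusted p-value of 0.05. Of the 10 clock genes 1 did: Nr1d2, with a slope of -0.058 log2 units per library (edgeR adjusted p = 0.0129). Clock had a slope of -0.046 (0.0561), and the other 8 genes had adjusted p-values of at least 0.373. With the number taken instead as a linear drift over libraries 1 to 8, a term that the group cannot be fully separated from, Nr1d2 was called higher with NaCl (log2 fold change 0.20; adjusted p = 0.0397), 1 of the 10 where 24.1% of all genes were called.

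The 4 further repressors all had a slope past the threshold, with 0.19 log2 units per library for Bhlhe40, 0.22 for Bhlhe41, 0.20 for Ciart and 0.12 for Nfil3 (edgeR adjusted p = 0.0101, 8.03e-05, 0.0263 and 1.98e-05). Bhlhe40 had 233, 238, 281 and 293 CPM in control replicates 1 to 4 and 141, 178, 212 and 243 CPM in NaCl replicates 5 to 8. The lower libraries of each group were those with the lower numbers. Rora had a slope of the same sign, 0.25 log2 units per library (9.31e-07). Timeless, a replication fork protein related to the fly clock gene, had -0.11 (5.23e-05). With the centred number in the fit, 43.0% of all tested genes were called with NaCl in place of 34.1%. Of the 10 clock genes 1 was, Per3 (edgeR adjusted p = 0.0366), and Bhlhe40 was called lower with NaCl (log2 fold change -0.45; adjusted p = 0.00195), where it was not called without it. What the number stands for (order of harvest, extraction or library preparation) is not given in the sources used here.

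**Figure D5:**
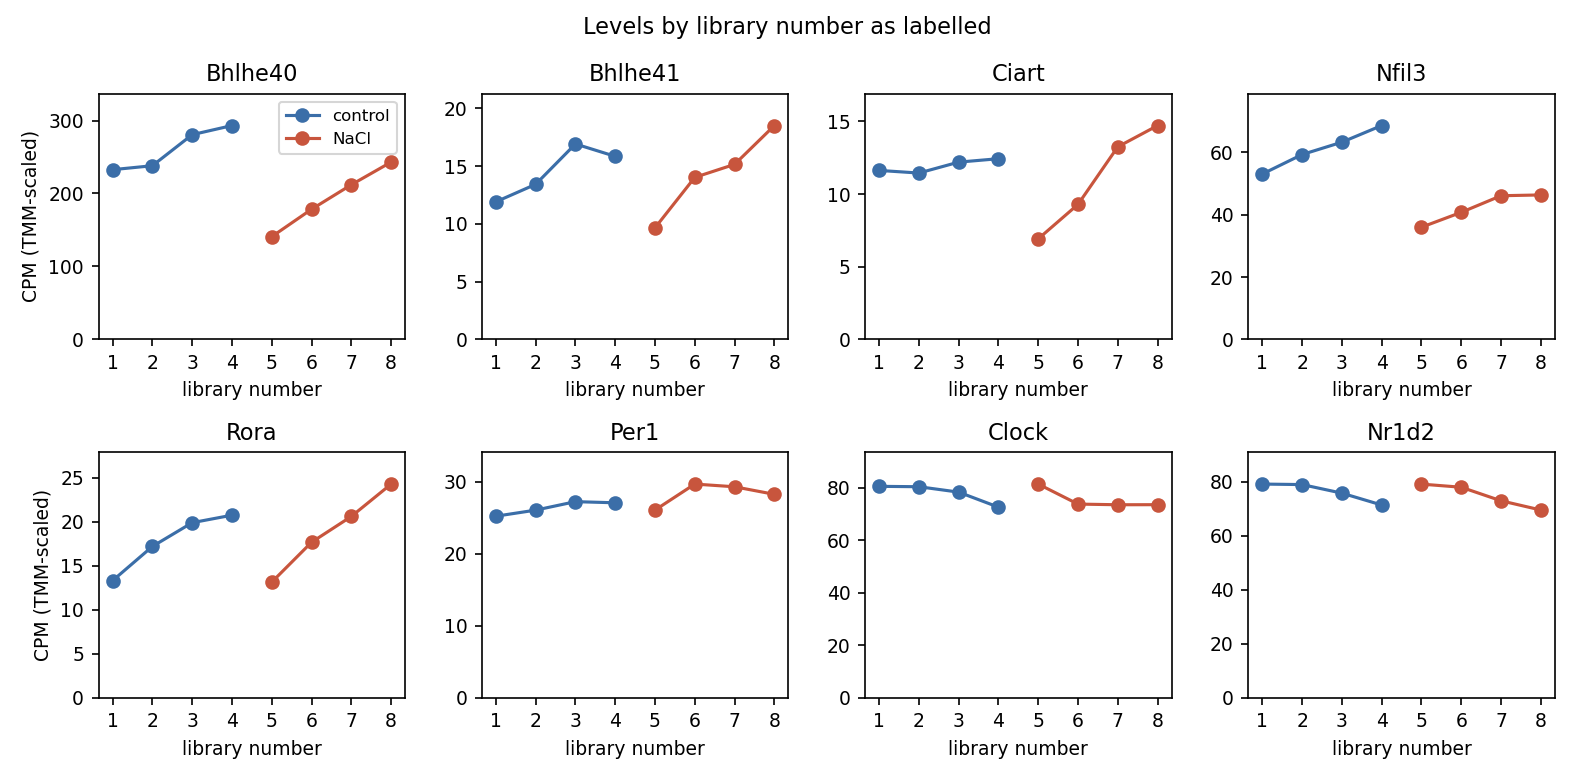
CPM from 0 by library number for 4 further repressors, Rora, Per1, Clock and Nr1d2; control libraries (blue) are 1 to 4 and NaCl libraries (red) 5 to 8. Slopes with the number within groups are positive for the repressors and Rora, such as 0.19 log2 units per library for Bhlhe40, and negative for Nr1d2 at -0.058.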

How the data were processed

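The table used was deposited by the authors as raw counts per Ensembl gene for 8 libraries. Per the submitters' processing notes, Trim Galore 0.6.7, STAR, DESeq2 1.34.0 and the build mm10 were used, with no role stated. The counting program, annotation and strandedness are not given in the sources used here. From these counts, edgeR 4.0.16 (R 4.3.3) gave all gene tests: low genes were dropped by filterByExpr (minimum count 10, which removed 1264 genes with 0.0191% of counts), scaling was by TMM, and the quasi-likelihood model was robust and held only the group, with Benjamini-Hochberg adjustment over all 14024 genes. Intervals (95%) used the fit's standard error and degrees of freedom. Log2 CPM for ratios used a prior count of 2. Coordinates, exon lengths and overlaps are from GENCODE M21 on GRCm38 (mm10), promoters from RefSeq. The gene test was also run on simulated data, and the outcome is not reported here. No libraries of a group agreed within sampling noise. The members, lists and tests were chosen with earlier results of these data known. All 10 clock genes were to be named, with every called gene of a further list, or the 5 with the highest absolute change where more than 5 were called. The 5 genes most like the leading called clock gene were to be named too, and since none was called that rule named no gene. Alternatives were other scalings, other filters, DESeq2 1.42.0, limma-voom (limma 3.58.1), a threshold of 0.01, the library number as a covariate and leaving out each library. Some genes of these lists enter the counts but are not reported here by name.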

Additional observations from a re-analysis of the deposited data

Results flagged for a closer look

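Among 32 sets of 4 libraries, 2 held a library far from the remaining 3, and chance alone flags about 1.6. For Clock it was NaCl replicate 5, at 81.4 CPM against 73.5 to 73.8 CPM. Leaving it out gave Clock a log2 fold change of -0.083 (edgeR adjusted p = 0.18) in place of -0.046 (0.482). For Per3 it was NaCl replicate 7, at 13.6 CPM against 14.7 to 14.8 CPM. Leaving it out gave Per3 a log2 fold change of -0.16 (edgeR adjusted p = 0.137) in place of -0.18 (0.0534).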

How the results depend on the processing

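No paired analysis was possible because control libraries are numbered 1 to 4 and NaCl libraries 5 to 8, with no number in common, so no replicate block could be fitted. Over 190 alternative results for the 10 clock genes, 184 kept their side of the threshold. The threshold of 0.01 reuses the main fit, so an uncalled gene could not change side there. The number of clock genes called lower was 1 in place of 0 with totals without mitochondrially encoded and the 10 most abundant genes, with DESeq2 and with the centred library number, which calls 6030 genes in all (Per3 each time), and ranged from 0 to 1 without single libraries. The number called higher was 1 with a linear drift over libraries 1 to 8, where Nr1d2 reversed (0.20), as did Tef (0.036), Por (0.072) and Fkbp5 (0.14). Clock (0.14), Arntl (-0.040), Per1 (-0.035) and Cry1 (-0.068) changed sign there too, uncalled in both fits. With limma-voom, Prkaa2 and Sirt1 were not called (adjusted p = 0.0502 and 0.0607), nor were Tef and Fkbp5 with library totals alone (0.0615 and 0.0505). An adjusted p-value under 0.01 gave 3145 called genes in all and 16 in the further lists, in place of 4789 and 25, by its own construction. Without single libraries the further lists had 17 to 24 called genes and all genes 4071 to 4634. Of the 25 called genes of those lists, 11 kept their call under every alternative run. Without single libraries, where the exact test is too small to pass, the Per1-Per2 difference was 0.23 to 0.35 and the Per1-Per3 difference 0.24 to 0.33. Arntl (-0.045 to 0.049) and Nr1d2 (-0.060 to 0.0046) changed sign without single libraries, uncalled throughout. Promoter shares taken over the bases before the start alone were lower for each motif (E-box 6.02%, D-box 1.501%), and the ROR core of Arntl was then left out, since it lies after the start. The clock genes had 437 to 3843 counts per library, and the parts of counting error and replicate spread in the intervals were not separated.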
